A study of Drosophila melanogaster with 27 samples.

Results

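The genes of the endoplasmic reticulum (ER) and of the secretory pathway were described in adult males of Drosophila melanogaster that carried different amounts of inbreeding depression. The list named 58 genes in 10 roles, from signal peptide recognition to vesicle fusion, and a gene was taken when its symbol in the platform annotation belonged to a probe set with 1 gene only. Of the 58 genes 48 were matched, and the probe set with the highest mean was used for the 1 gene with several of them (ergic53). Srp54, SsRbeta, Ost48, Calr, Xbp1, Sar1, Sec23, beta'COP, Syx5 and Rab1 were not matched. Of the 48 genes 45 were among the 9384 probe sets of highest mean level, out of 18769, to which the tests were restricted. The probe sets of Spase22-23, Pdi and zetaCOP were too dim, which need not mean that the genes were little expressed. The genes were selected on their symbols with earlier results of these data known, and the contrast behind those results is not stated with the list. The only measured value in the rule itself is the mean level over the 27 arrays, by which the probe set of ergic53 was chosen. Counts of the listed genes are therefore given as a description, and they are no independent support for a direction.

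The study founded 4 inbred lines, numbered 5, 7, 12 and 15 in the sample labels, each from 1 couple of a large outbred population, and split each couple's offspring into 55 sublines that went through 8 generations of sib mating up to an average inbreeding coefficient of about 0.7. Arrays were run on 6 sublines of each line, picked from both ends of its range of productivity, and on 3 samples of the outbred control. The 3 sublines at the low end, as far as they yielded flies for RNA, are called most depressed here, and the 3 at the high end least depressed. Each of the 27 samples was 1 array with total RNA of a pool of whole adult males, reared under continuous light as all others were. Sublines of a line share their founding couple, and what a difference between levels within a line stems from was not tested. The selection of extreme sublines for productivity was made on the same sublines. In RNA of whole bodies, fewer cells of a type and less RNA per cell cannot be told apart.

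Proteins that are secreted or set in membranes enter the ER while they are made. The signal recognition particle (SRP) brings the ribosome to its receptor, the Sec61 channel takes the chain in, signal peptidase removes the signal peptide, and oligosaccharyltransferase attaches sugars. Chaperones and thiol oxidoreductases then fold the chain, COPII vesicles carry it to the Golgi with the help of cargo receptors, and COPI vesicles bring ER proteins back. In a fly, tissues that secrete much, such as the male accessory gland, the midgut, the fat body and the salivary glands, are rich in these proteins.

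All 45 genes had a lower mean in the most depressed than in the least depressed sublines. The mean log2 difference over the 4 lines passed the test (limma, adjusted p under 0.05 over the 9384 probe sets) as lower in 38 of the 45 genes and as higher in 0, where 8.90% of all probe sets tested were lower and 6.24% higher. The median log2 difference of the 45 was -0.31, beside -0.01 over all probe sets tested. The mean was lower in each of the 4 lines for 42 genes, where 17.4% of all probe sets were so. Sec24CD, Sec24AB, Cnx99A, Stt3A, Der-1, PEK and Srp14 did not pass.

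The change was small in size and regular between sublines. The largest log2 difference was -0.65 and the smallest -0.02. All 12 most depressed sublines lay below all 12 least depressed ones in 5 genes, TRAM, CG5885, Sec61gamma, ergic53 and betaCOP, where 0.139% of all probe sets (13 of 9384) did so. Within a line, the 3 most depressed sublines lay below the 3 least depressed ones in 27 of the 45 genes in line 5 (all probe sets 8.51%), 26 in line 7 (7.02%), 35 in line 12 (17.0%) and 32 in line 15 (7.42%). On the deposited scale the outbred control lay between both levels for most genes. The mean was above the control in the least depressed and below it in the most depressed sublines in 28 of the 45. The share of all probe sets that did so was not computed. With each array centred on its own median, the least depressed mean was below the control in 15 of the 45, against 8 as deposited.

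**Figure D1:**
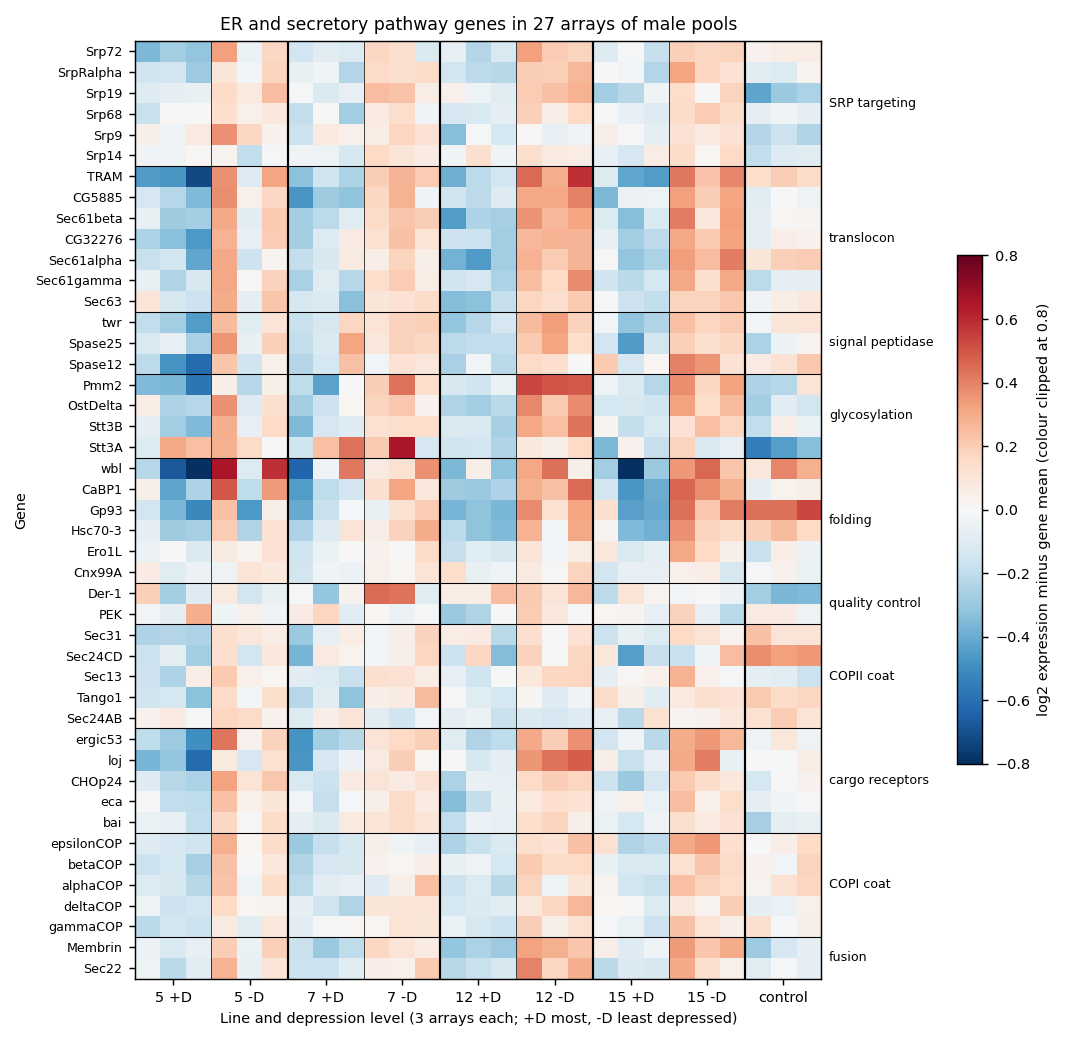
Log2 expression of the 45 genes (rows, by role) in the 27 arrays (columns, 3 for each line and depression level and 3 for the outbred control), each minus the mean of the gene over the arrays. Blue is below and red above the mean, and the most depressed (+D) columns are mostly blue beside the red least depressed (-D) columns of the same line, apart from Der-1, PEK, Stt3A and Sec24AB.

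The sample codes of the labels were put into 2 sets by their numbers, and the sets nearly follow the level. Codes that join a number of each set were counted as later, and they make up most of the later set. Of the most depressed sublines 11 carried a code of the first set and 1 a later code, of the least depressed ones 3 and 9, and all 3 control samples were of the first set. With the code set in the model 29 of the 45 genes were lower and 0 higher (all probe sets 2.69% lower), with a median log2 difference of -0.31. Within the first set, where only lines 7 and 15 hold both levels, 43 of the 45 estimates were below 0 with a median of -0.26, but only TRAM and ergic53 passed the test (all probe sets 0.0746%). All arrays of those lines gave the same median of -0.26. What the codes stand for is not given in the sources used here, and their part in the difference was not tested beyond these values. In 1 array (line 7, most depressed, replicate 2) eggshell transcripts were high, and in 4 others yolk protein transcripts were (lines 5 and 15, with 1 array at each level). Without these 5 arrays 36 of the 45 genes were lower (all probe sets 7.74%), with a median of -0.29.

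**Figure D2:**
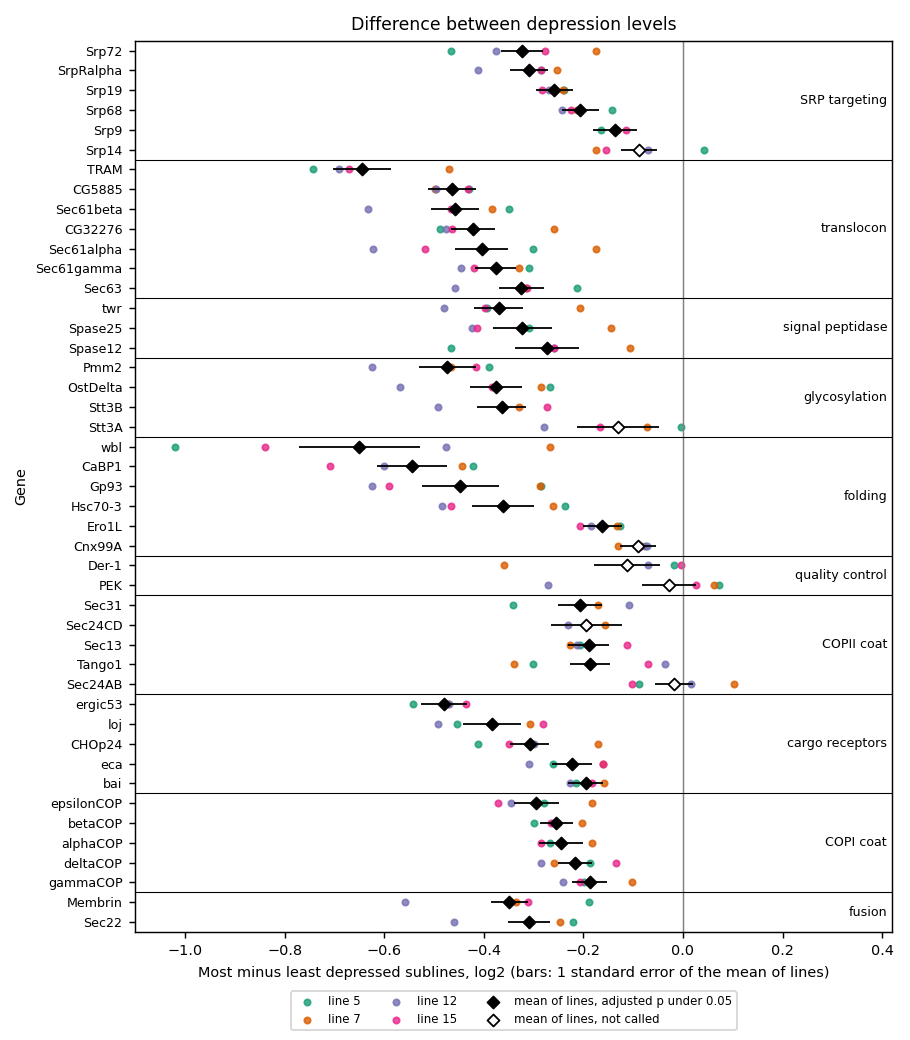
Log2 difference of most minus least depressed sublines for the 45 genes, by role. Diamonds are means over the 4 lines with 1 standard error, filled where the adjusted p was under 0.05 (38 genes), and coloured points are the lines. All diamonds lie below 0, and the translocon genes lie farther from 0 than the coat genes.

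Genes of targeting to the ER come first. SRP recognises the signal peptide and its receptor sits in the ER membrane. Of the 6 genes tested 5 were lower in the most depressed sublines, with a median log2 difference of -0.23. The largest difference was that of Srp72, an SRP protein, at -0.32 ± 0.04 (SE) (adjusted p = 3.26e-05). SrpRalpha, the subunit of the receptor that binds SRP, followed at -0.31 ± 0.04 (SE) (adjusted p = 1.93e-05). Its mean log2 levels in the most and least depressed sublines were 9.84 ± 0.07 and 10.12 ± 0.10 in line 5, 9.93 ± 0.11 and 10.18 ± 0.01 in line 7, 9.84 ± 0.04 and 10.26 ± 0.04 in line 12 and 9.96 ± 0.13 and 10.24 ± 0.11 in line 15 (SD, n = 3), beside 9.98 ± 0.08 in the control. The levels did not overlap in any line. Srp68 (-0.21) and Srp9 (-0.14) fell less, and Srp14, which pairs with Srp9, was at -0.09 with an adjusted p of 0.106.

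Srp19, the SRP protein that is needed for the assembly of the particle, differed from the control in both levels. Srp19 stood at log2 levels of 9.33, 9.36 and 9.37 (line 5), 9.43, 9.32 and 9.37 (line 7), 9.47, 9.39 and 9.35 (line 12) and 9.16, 9.21 and 9.40 (line 15) where depression was highest. The least depressed sublines gave Srp19 at 9.59, 9.51 and 9.68 in line 5, 9.69, 9.66 and 9.49 in line 7, 9.64, 9.67 and 9.71 in line 12 and 9.58, 9.44 and 9.61 in line 15. For Srp19 the outbred control samples gave log2 levels of 9.02, 9.14 and 9.18. All 24 inbred sublines but the 1 most depressed subline of line 15 at 9.16 were above the highest control sample. The log2 difference from the control was 0.49 ± 0.06 (SE) in the least depressed sublines (adjusted p = 3.08e-06) and 0.24 ± 0.06 (SE) in the most depressed ones (adjusted p = 0.00409), where the call was lost with centred arrays (adjusted p = 0.077) and without control replicate 1 (0.0537). Between the levels it was -0.26 ± 0.04 (SE) (adjusted p = 9.72e-05), and the levels did not overlap within any line.

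All 7 genes of the translocon, that is, of the channel and of the proteins around it, were lower in the most depressed sublines, with log2 differences from -0.64 to -0.32 and a median of -0.42. TRAM, a membrane protein beside the channel that helps nascent chains into it, had the largest difference of the group. Log2 levels of TRAM were 9.81, 9.79 and 9.54 (line 5), 9.93, 10.10 and 10.003 (line 7), 9.87, 10.05 and 10.11 (line 12) and 10.15, 9.84 and 9.81 (line 15) in the most depressed sublines. Their least depressed counterparts had TRAM at 10.63, 10.16 and 10.58 (line 5), 10.45, 10.53 and 10.46 (line 7), 10.71, 10.55 and 10.84 (line 12) and 10.68, 10.49 and 10.65 (line 15). Outbred males had TRAM at 10.40, 10.45 and 10.41. The highest most depressed subline (10.15) lay just below the lowest least depressed one (10.16), and every most depressed subline was below the control. TRAM fell by 36% between the levels (log2 difference -0.64 ± 0.06 (SE), adjusted p = 9.01e-07). It passed within lines 5, 12 and 15 (adjusted p = 0.00238, 0.00343 and 0.0108), and in line 7 it was at -0.47 with an adjusted p of 0.121.

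CG5885, the fly counterpart of the gamma subunit of the translocon-associated protein complex, also fell between the levels. For CG5885, the most depressed sublines gave log2 levels of 10.69, 10.60 and 10.47 in line 5, 10.36, 10.54 and 10.50 in line 7, 10.67, 10.62 and 10.72 in line 12 and 10.46, 10.78 and 10.78 in line 15. Among least depressed sublines CG5885 was at 11.20, 10.87 and 10.99 in line 5, 10.99, 11.10 and 10.80 in line 7, 11.13, 11.14 and 11.23 in line 12 and 11.15, 11.02 and 11.14 in line 15. Control levels of CG5885 were 10.74, 10.82 and 10.78. The 12 least depressed sublines started at 10.80, above the highest most depressed one at 10.78. The log2 difference between the levels was -0.46 ± 0.05 (SE) (adjusted p = 2.99e-06). Compared with the control, CG5885 was higher in the least depressed sublines (log2 difference 0.28 ± 0.08 (SE), adjusted p = 0.0048), a call lost with the code set as a covariate (adjusted p = 0.0782), and in the most depressed ones the difference was -0.18 with an adjusted p of 0.0651.

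The 3 subunits of the channel itself fell together. Sec61beta was measured in the most depressed sublines at log2 levels of 11.61, 11.39 and 11.40 in line 5, 11.40, 11.46 and 11.57 in line 7, 11.23, 11.43 and 11.41 in line 12 and 11.56, 11.33 and 11.55 in line 15. In the least depressed sublines, Sec61beta was at 11.98, 11.59 and 11.88 in line 5, 11.82, 11.89 and 11.87 in line 7, 12.03, 11.94 and 11.99 in line 12 and 12.08, 11.76 and 12.00 in line 15. The control log2 levels of Sec61beta were 11.59, 11.68 and 11.69. Only in line 5 did the levels of Sec61beta overlap, by 1 least depressed subline at 11.59. The log2 difference of Sec61beta between the levels was -0.46 ± 0.05 (SE) (adjusted p = 3.99e-06). Sec61beta was also higher than in the control in the least depressed sublines (0.25, adjusted p = 0.0132) and lower in the most depressed ones (-0.21, adjusted p = 0.0358). The first call was lost with the code set as a covariate (adjusted p = 0.116) and the second without any 1 of the control samples (0.0599, 0.117 and 0.128).

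Sec61alpha forms the pore. Sec61alpha stood at log2 levels of 11.08, 11.11 and 10.84 (line 5), 11.07, 11.13 and 11.33 (line 7), 10.88, 10.81 and 10.98 (line 12) and 11.27, 10.94 and 11.01 (line 15) where depression was highest. The least depressed sublines gave Sec61alpha at 11.57, 11.10 and 11.28 in line 5, 11.31, 11.44 and 11.31 in line 7, 11.54, 11.46 and 11.53 in line 12 and 11.59, 11.51 and 11.67 in line 15. For Sec61alpha the outbred control samples gave log2 levels of 11.36, 11.45 and 11.46. In lines 12 and 15 the levels were apart, and in lines 5 and 7 they overlapped. The log2 difference of Sec61alpha was -0.40 ± 0.05 (SE) (adjusted p = 2.98e-05). All 12 most depressed sublines were below the control (-0.39, adjusted p = 0.00117), while the least depressed ones were at 0.02 from it (adjusted p = 0.879). For Sec61gamma, the small subunit, the 12 most depressed sublines ran from 10.72 to 10.92 with a median log2 level of 10.82. Its least depressed sublines ran from 10.99 to 11.36 with a median of 11.18. The gap between them was narrow but complete, and the log2 difference was -0.38 ± 0.04 (SE) (adjusted p = 4.28e-06).

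CG32276 is the counterpart of the mammalian protein SERP1 (RAMP4), which binds the channel. Log2 levels of CG32276 were 11.98, 11.90 and 11.77 (line 5), 11.96, 12.12 and 12.30 (line 7), 12.07, 12.06 and 11.95 (line 12) and 12.17, 11.96 and 12.02 (line 15) in the most depressed sublines. Their least depressed counterparts had CG32276 at 12.51, 12.17 and 12.43 (line 5), 12.35, 12.47 and 12.34 (line 7), 12.49, 12.51 and 12.50 (line 12) and 12.54, 12.44 and 12.55 (line 15). Outbred males had CG32276 at 12.16, 12.28 and 12.27. Within each line the levels were apart, although the most depressed subline of line 7 at 12.30 came close to the least depressed ones. The log2 difference was -0.42 ± 0.04 (SE) (adjusted p = 2.99e-06), and the gene was above the control in the least depressed sublines (0.21, adjusted p = 0.0192) and below it in the most depressed ones (-0.21, adjusted p = 0.0194). The former call was lost with the code set as a covariate (adjusted p = 0.0853) and the latter without control replicate 2 or 3 (0.0932 and 0.0812). Sec63, which recruits the chaperone BiP to the channel, fell by 20.1% (log2 difference -0.32 ± 0.05 (SE), adjusted p = 5.61e-05).

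**Figure D3:**
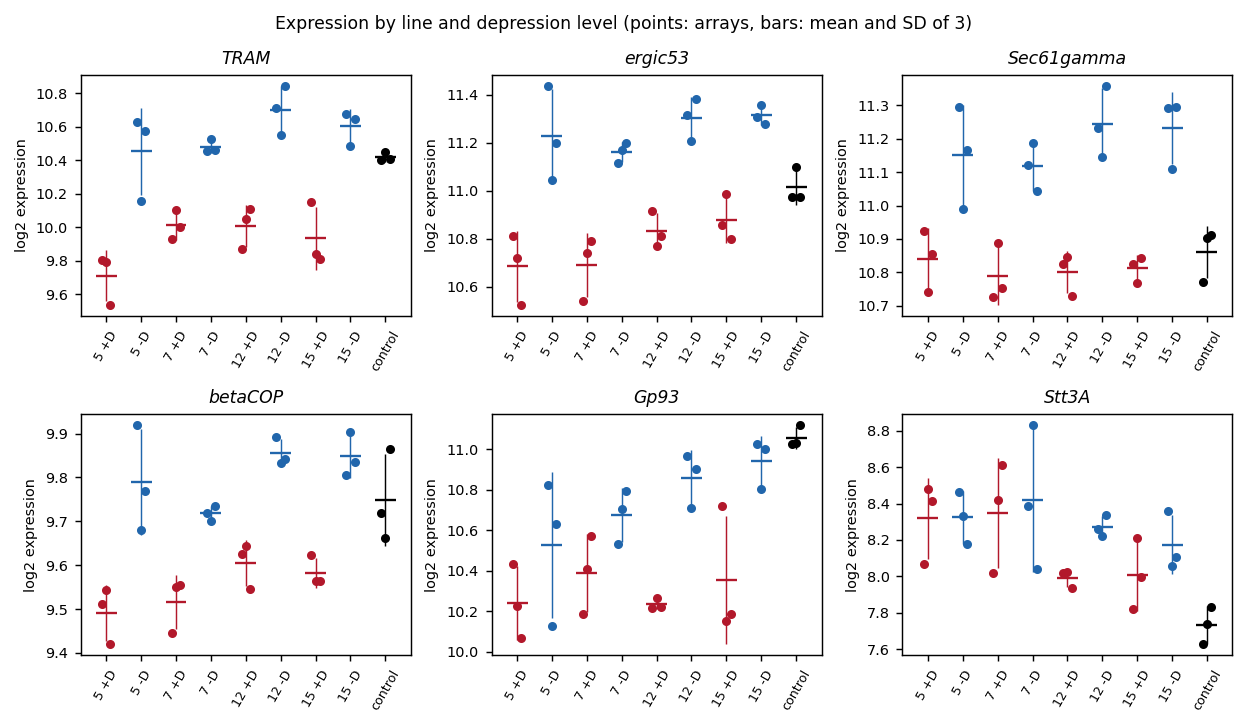
Log2 expression of TRAM, ergic53, Sec61gamma, betaCOP, Gp93 and Stt3A in each array (points), with the mean and SD of the 3 arrays of a group. Red is most depressed, blue least depressed and black the outbred control. The red and blue points do not overlap in the first 4 genes, the control lies above all inbred groups in Gp93 and below them in Stt3A.

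In the next step, cleavage of the signal peptide, the 3 signal peptidase genes tested were all lower, at -0.37 for twr, the catalytic subunit, -0.32 for Spase25 and -0.27 for Spase12 (adjusted p = 3.26e-05, 0.000709 and 0.00531). The mean log2 levels of twr in the most and least depressed sublines were 10.87 ± 0.13 and 11.26 ± 0.17 in line 5, 11.13 ± 0.19 and 11.34 ± 0.04 in line 7, 10.95 ± 0.09 and 11.44 ± 0.07 in line 12 and 10.99 ± 0.15 and 11.38 ± 0.03 in line 15 (SD, n = 3), with the control at 11.24 ± 0.07. The levels of twr overlapped in line 7 and were apart in the other lines. Of the 4 glycosylation genes 3 were lower, with a median of -0.37. All 4 were higher than the control in the least depressed sublines, where 32.1% of all probe sets were so. These 4 calls against the control were all lost in the first code set alone. That of Stt3B was also lost with centred arrays and without control replicate 1. Stt3B, a catalytic subunit of the oligosaccharyltransferase that glycosylates chains after their entry, had means of 10.43 ± 0.15 and 10.79 ± 0.18 in line 5, 10.47 ± 0.13 and 10.80 ± 0.01 in line 7, 10.50 ± 0.08 and 10.99 ± 0.10 in line 12 and 10.57 ± 0.11 and 10.84 ± 0.06 in line 15, beside 10.60 ± 0.12 in the control. The levels of Stt3B were apart in every line, with a log2 difference of -0.36 ± 0.05 (SE) (adjusted p = 3.26e-05).

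Pmm2 makes the mannose 1-phosphate from which the sugar chains are built. For Pmm2, the most depressed sublines gave log2 levels of 8.62, 8.61 and 8.40 in line 5, 8.77, 8.55 and 8.98 in line 7, 8.85, 8.81 and 8.92 in line 12 and 8.94, 8.86 and 8.74 in line 15. Among least depressed sublines Pmm2 was at 9.02, 8.75 and 9.02 in line 5, 9.17, 9.41 and 9.11 in line 7, 9.51, 9.48 and 9.47 in line 12 and 9.35, 9.14 and 9.30 in line 15. Control levels of Pmm2 were 8.73, 8.74 and 9.08. The levels did not overlap within any line, while the lines themselves stood at different heights. The log2 difference of Pmm2 between the levels was -0.47 ± 0.06 (SE) (adjusted p = 1.15e-05). OstDelta is a non-catalytic subunit of the oligosaccharyltransferase. OstDelta was measured in the most depressed sublines at log2 levels of 10.21, 9.90 and 9.92 in line 5, 9.88, 9.99 and 10.17 in line 7, 9.91, 9.87 and 9.94 in line 12 and 10.01, 10.02 and 9.99 in line 15. In the least depressed sublines, OstDelta was at 10.52, 10.05 and 10.28 in line 5, 10.33, 10.37 and 10.19 in line 7, 10.54, 10.36 and 10.53 in line 12 and 10.48, 10.30 and 10.41 in line 15. The control log2 levels of OstDelta were 9.88, 10.07 and 10.005. In the most depressed sublines it was close to the control (log2 difference 0.00 ± 0.08 (SE), adjusted p = 0.993) and in the least depressed ones it was higher (0.38 ± 0.08 (SE), adjusted p = 0.00102). The difference between the levels was -0.38 ± 0.05 (SE) (adjusted p = 5.61e-05), and they overlapped in line 5 only.

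Stt3A, the catalytic subunit that works beside the channel, did not pass between the levels. Stt3A stood at log2 levels of 8.07, 8.48 and 8.42 (line 5), 8.02, 8.42 and 8.61 (line 7), 8.02, 8.03 and 7.94 (line 12) and 7.82, 8.21 and 7.99 (line 15) where depression was highest. The least depressed sublines gave Stt3A at 8.46, 8.33 and 8.18 in line 5, 8.39, 8.83 and 8.04 in line 7, 8.26, 8.22 and 8.33 in line 12 and 8.36, 8.06 and 8.11 in line 15. For Stt3A the outbred control samples gave log2 levels of 7.63, 7.74 and 7.83. The levels overlapped in lines 5, 7 and 15, and the log2 difference between them was -0.13 ± 0.08 (SE) (adjusted p = 0.338). All 12 least depressed sublines were above the 3 control samples, as were 11 of the 12 most depressed ones. The log2 difference from the control was 0.56 ± 0.13 (SE) in the least (adjusted p = 0.00152) and 0.43 ± 0.13 (SE) in the most depressed sublines (adjusted p = 0.0121). The first of these calls was lost with the code set as a covariate (adjusted p = 0.125) and in the first code set alone (0.176), and the second without control replicate 1 (0.0785).

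Among the genes of protein folding, of which 6 were tested, 5 were lower, with a median log2 difference of -0.40. The largest was that of wbl (windbeutel), an ER protein related to protein disulfide isomerases whose known role is in the dorsoventral patterning of the egg. Log2 levels of wbl were 8.94, 8.50 and 8.14 (line 5), 8.54, 9.14 and 9.59 (line 7), 8.81, 9.22 and 8.85 (line 12) and 8.89, 8.26 and 8.88 (line 15) in the most depressed sublines. Their least depressed counterparts had wbl at 9.82, 9.06 and 9.75 (line 5), 9.24, 9.29 and 9.53 (line 7), 9.48, 9.61 and 9.22 (line 12) and 9.52, 9.63 and 9.39 (line 15). Outbred males had wbl at 9.26, 9.56 and 9.46. The spread was wide, and the levels were apart in lines 5 and 15 but not in lines 7 and 12. The gene fell by 36.3% (log2 difference -0.65 ± 0.12 (SE), adjusted p = 0.000884), by 1.02 on the log2 scale in line 5 (adjusted p = 0.0318), and was below the control in the most depressed sublines (-0.61 ± 0.19 (SE), adjusted p = 0.0152). Without control replicate 2 or 3 this last call was lost (adjusted p = 0.0783 and 0.057).

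CaBP1 is a protein disulfide isomerase. For CaBP1, the most depressed sublines gave log2 levels of 10.37, 9.90 and 10.07 in line 5, 9.88, 10.12 and 10.17 in line 7, 10.04, 10.02 and 10.07 in line 12 and 10.18, 9.86 and 9.92 in line 15. Among least depressed sublines CaBP1 was at 10.82, 10.12 and 10.66 in line 5, 10.45, 10.64 and 10.41 in line 7, 10.60, 10.55 and 10.78 in line 12 and 10.79, 10.69 and 10.60 in line 15. Control levels of CaBP1 were 10.25, 10.35 and 10.37. Line 5 was the only line in which the levels overlapped, and 1 of its least depressed sublines, at 10.12, lay among the most depressed ones. The log2 difference of CaBP1 was -0.54 ± 0.07 (SE) (adjusted p = 2.72e-05). Relative to the control the values were 0.27 in the least and -0.27 in the most depressed sublines, with adjusted p of 0.0523 and 0.0565.

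Gp93, the Hsp90 chaperone of the ER, was highest in the outbred control. Gp93 was measured in the most depressed sublines at log2 levels of 10.43, 10.22 and 10.07 in line 5, 10.19, 10.41 and 10.57 in line 7, 10.22, 10.26 and 10.22 in line 12 and 10.72, 10.15 and 10.19 in line 15. In the least depressed sublines, Gp93 was at 10.82, 10.12 and 10.63 in line 5, 10.53, 10.71 and 10.79 in line 7, 10.97, 10.71 and 10.90 in line 12 and 11.02, 10.80 and 11.00 in line 15. The control log2 levels of Gp93 were 11.02, 11.03 and 11.12. The highest least depressed subline was level with the lowest control sample (both 11.02), and all other inbred sublines were below the control. The log2 difference from the control was -0.75 ± 0.12 (SE) in the most depressed sublines (adjusted p = 9.38e-05) and -0.31 ± 0.12 (SE) in the least depressed ones (adjusted p = 0.0465). The latter call was lost with the code set as a covariate (adjusted p = 0.308), in the first code set alone (0.353), without the filter (0.0623) and without any 1 of the control samples, as well as without several single inbred arrays. Between the levels it was -0.45 ± 0.08 (SE) (adjusted p = 0.000466), with the levels apart in lines 12 and 15. Hsc70-3, the Hsp70 chaperone BiP, had mean log2 levels in the most and least depressed sublines of 11.84 ± 0.11 and 12.07 ± 0.24 in line 5, 11.96 ± 0.17 and 12.22 ± 0.12 in line 7, 11.75 ± 0.07 and 12.24 ± 0.18 in line 12 and 11.81 ± 0.23 and 12.28 ± 0.12 in line 15 (SD, n = 3). With a control at 12.25 ± 0.05, all 12 most depressed sublines were below it (-0.41, adjusted p = 0.0028) and the difference between the levels was -0.36 ± 0.06 (SE) (adjusted p = 0.000432). Ero1L, which reoxidises protein disulfide isomerases, fell by 10.6% (adjusted p = 0.00715), and the lectin chaperone Cnx99A was at -0.09 (adjusted p = 0.0964).

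Neither of the 2 quality control genes tested passed between the levels (0 also at an unadjusted p under 0.05). PEK, the kinase that slows translation when unfolded proteins build up, was at -0.03 ± 0.05 (SE) (adjusted p = 0.793). Der-1, which takes part in the export of misfolded proteins from the ER, was at -0.11 ± 0.07 (SE) (adjusted p = 0.294). Der-1 stood at log2 levels of 10.54, 10.08 and 10.24 (line 5), 10.33, 10.04 and 10.38 (line 7), 10.41, 10.41 and 10.60 (line 12) and 10.13, 10.45 and 10.37 (line 15) where depression was highest. The least depressed sublines gave Der-1 at 10.43, 10.20 and 10.28 in line 5, 10.80, 10.78 and 10.25 in line 7, 10.55, 10.45 and 10.62 in line 12 and 10.33, 10.34 and 10.30 in line 15. For Der-1 the outbred control samples gave log2 levels of 10.07, 9.98 and 9.995. The levels overlapped in every line. Yet all 24 inbred sublines but 1, a most depressed one of line 7, were above the highest control sample at 10.07, and the log2 difference from the control was 0.43 ± 0.10 (SE) in the least (adjusted p = 0.00233) and 0.32 ± 0.10 (SE) in the most depressed sublines (adjusted p = 0.0211). With the code set as a covariate the call in the least depressed sublines was lost (adjusted p = 0.0942), as it was in the first code set alone (0.193), and that in the most depressed ones was lost with centred arrays (0.106) and without any 1 of the control samples (0.0506, 0.0798 and 0.0747).

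In the COPII coat Sec13 and Sec31 form the outer cage, the Sec24 proteins choose the cargo, and Tango1 sits at ER exit sites and passes on large cargo such as collagen. Between the levels 3 of the 5 genes were lower, at -0.21 for Sec31, -0.19 for Sec13 and -0.19 for Tango1 (adjusted p = 0.00256, 0.00326 and 0.00285). The differences of Tango1 came mainly from lines 5 and 7. Its mean log2 levels in the most and least depressed sublines were 9.38 ± 0.10 and 9.68 ± 0.10 in line 5 and 9.37 ± 0.12 and 9.71 ± 0.11 in line 7, against 9.51 ± 0.08 and 9.55 ± 0.06 in line 12 and 9.62 ± 0.12 and 9.69 ± 0.03 in line 15 (SD, n = 3), with 9.76 ± 0.03 in the control. The interaction of line and level did not pass for Tango1 (adjusted p = 0.596). Sec24CD had lower levels than the control in all inbred sublines. For Sec24CD, the most depressed sublines gave log2 levels of 8.51, 8.60 and 8.41 in line 5, 8.31, 8.75 and 8.71 in line 7, 8.51, 8.85 and 8.33 in line 12 and 8.76, 8.24 and 8.50 in line 15. Among least depressed sublines Sec24CD was at 8.81, 8.53 and 8.76 in line 5, 8.66, 8.73 and 8.85 in line 7, 8.86, 8.67 and 8.85 in line 12 and 8.50, 8.65 and 8.93 in line 15. Control levels of Sec24CD were 9.05, 9.01 and 9.03. No inbred subline reached the lowest control sample, and within lines the levels overlapped. The log2 difference from the control was -0.49 ± 0.11 (SE) in the most (adjusted p = 0.00205) and -0.30 ± 0.11 (SE) in the least depressed sublines (adjusted p = 0.0379). The call in the least depressed sublines was lost with the code set as a covariate (adjusted p = 0.462), in the first code set alone (0.426), without the filter (0.0536) and without any 1 of the control samples. Sec24AB was also lower than the control at both levels (-0.17 and -0.15, adjusted p = 0.0321 and 0.0469), with -0.02 between the levels (adjusted p = 0.818). Neither call of Sec24AB against the control held in the first code set alone (0.111 and 0.429), without the filter (0.0527 and 0.0727) or without any 1 of the control samples, and that in the least depressed sublines was also lost with the code set as a covariate (0.365).

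All 5 genes of cargo receptors were lower in the most depressed sublines, with a median log2 difference of -0.31. The lectin ergic53, which takes glycoproteins from the ER, had the clearest separation. Log2 levels of ergic53 were 10.81, 10.72 and 10.52 (line 5), 10.54, 10.74 and 10.79 (line 7), 10.91, 10.77 and 10.81 (line 12) and 10.86, 10.99 and 10.80 (line 15) in the most depressed sublines. Their least depressed counterparts had ergic53 at 11.44, 11.04 and 11.20 (line 5), 11.12, 11.17 and 11.20 (line 7), 11.32, 11.21 and 11.38 (line 12) and 11.31, 11.36 and 11.28 (line 15). Outbred males had ergic53 at 10.97, 11.10 and 10.97. Every most depressed subline was below every least depressed one, with 10.99 as the highest and 11.04 as the lowest of the 2 levels. The log2 difference was -0.48 ± 0.05 (SE) (adjusted p = 1.95e-06), so that ergic53 fell by 28.3%. Against the control ergic53 was higher in the least (0.24, adjusted p = 0.0128) and lower in the most depressed sublines (-0.24, adjusted p = 0.0124). Without control replicate 1 or 3 the former call was lost (adjusted p = 0.0711 and 0.0632), and without replicate 2 the latter (0.0861).

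The other receptors belong to the p24 family of small membrane proteins. loj was measured in the most depressed sublines at log2 levels of 9.07, 9.13 and 8.83 in line 5, 8.97, 9.31 and 9.39 in line 7, 9.44, 9.31 and 9.36 in line 12 and 9.49, 9.26 and 9.37 in line 15. In the least depressed sublines, loj was at 9.52, 9.31 and 9.56 in line 5, 9.51, 9.63 and 9.45 in line 7, 9.79, 9.88 and 9.93 in line 12 and 9.74, 9.85 and 9.38 in line 15. The control log2 levels of loj were 9.44, 9.45 and 9.50. In lines 5, 7 and 12 the levels of loj were apart, and in line 15 they overlapped by 1 least depressed subline at 9.38. The log2 difference of loj was -0.38 ± 0.06 (SE) (adjusted p = 0.000135). CHOp24 (-0.31), eca (-0.22) and bai (-0.20) passed with smaller differences (adjusted p = 2.04e-05, 0.000561 and 0.000685). The mean log2 levels of bai were 11.10 ± 0.08 and 11.31 ± 0.09 in the most and least depressed sublines of line 5, 11.17 ± 0.10 and 11.32 ± 0.02 in line 7, 11.10 ± 0.08 and 11.33 ± 0.07 in line 12 and 11.13 ± 0.06 and 11.31 ± 0.03 in line 15 (SD, n = 3), with 11.07 ± 0.12 in the control. The levels of bai did not overlap in any line in spite of the small difference.

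All 5 genes of the COPI coat tested were lower, from -0.29 for epsilonCOP to -0.19 for gammaCOP, with a median of -0.25. For betaCOP the 12 most depressed sublines ran from 9.42 to 9.64 with a median log2 level of 9.55, and the 12 least depressed ones from 9.68 to 9.92 with a median of 9.82. They did not overlap, and the log2 difference of betaCOP was -0.25 ± 0.03 (SE) (adjusted p = 3.27e-05). The mean log2 levels of deltaCOP were 9.90 ± 0.07 and 10.09 ± 0.08 in the most and least depressed sublines of line 5, 9.87 ± 0.08 and 10.12 ± 0.01 in line 7, 9.91 ± 0.03 and 10.20 ± 0.09 in line 12 and 9.99 ± 0.07 and 10.12 ± 0.09 in line 15 (SD, n = 3), beside 9.99 ± 0.06 in the control, with no overlap in any line. Both SNARE genes, whose proteins fuse vesicles with the Golgi, were lower too, Membrin at -0.35 ± 0.04 (SE) and Sec22 at -0.31 ± 0.04 (SE) (adjusted p = 3.69e-06 and 5.23e-05). Sec22 had means of 10.09 ± 0.09 and 10.32 ± 0.17 in line 5, 10.07 ± 0.05 and 10.31 ± 0.10 in line 7, 10.03 ± 0.05 and 10.50 ± 0.11 in line 12 and 10.06 ± 0.06 and 10.37 ± 0.13 in line 15, with 10.15 ± 0.04 in the control. Membrin was higher than the control in the least depressed sublines (0.37, adjusted p = 5.48e-05) and at 0.02 from it in the most depressed ones (adjusted p = 0.837).

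The 3 genes with dim probe sets were left out of these counts. On a fit without the filter, the log2 difference between the levels was -0.23 for Spase22-23, -0.17 for zetaCOP and -0.11 for Pdi (adjusted p = 0.143, 0.395 and 0.428). None of the 3 passed. By line the log2 differences of zetaCOP were 0.65, -0.22, -0.76 and -0.34 in lines 5, 7, 12 and 15. Those of Pdi were 0.12, -0.11, -0.16 and -0.28, and Spase22-23 was lower in the most depressed sublines of each line. The mean log2 level of Spase22-23 was 4.48 in the control and from 5.08 to 5.64 in the inbred groups, all below the median of every array, and no difference from the control is drawn at such levels.

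The lines were then compared. Within single lines 11 of the 45 genes were lower in line 5 (all probe sets 1.18%), 0 in line 7 (0.0107%), 27 in line 12 (3.44%) and 12 in line 15 (1.09%), and 0 were higher in any (all probe sets 0.703%, 0.00%, 1.21% and 0.320% higher). In line 7, 27 genes had an unadjusted p under 0.05. The median log2 differences were -0.28, -0.23, -0.35 and -0.28 in lines 5, 7, 12 and 15. A difference between lines in the effect of the level was not shown for any of the genes, as the interaction of line and level passed in 0 of the 45, with 3 at an unadjusted p under 0.05, where 0.0213% of all probe sets passed. The line counts rested on single arrays. In line 5 the count was 6 and 3 without the most depressed replicates 2 and 3, and 2, 17 and 5 without the least depressed replicates 1, 2 and 3. In line 12 it was 15 without the most depressed replicate 2 and 16 without either the least depressed replicate 1 or 3. For line 15 it was 3 and 7 without the most depressed replicates 2 and 3, and 1 and 5 without the least depressed replicates 1 and 2. In line 7, 2 genes passed without the least depressed replicate 1 or 2 of line 5 and 1 gene without its own least depressed replicate 3 or the most depressed replicate 1 of line 15. With the code set in the model the counts were 8, 0, 1 and 8 in lines 5, 7, 12 and 15. Of all probe sets 1.02%, 0.0107%, 0.149% and 0.725% were lower in these lines. With joined codes counted as later, line 12 holds each level in 1 code set only, so that level and code set cannot be told apart there. Some least depressed arrays of line 12 carry such joined codes.

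The lines themselves, averaged over both levels, differed in 2 of the 45 genes, Pmm2 and loj (limma F test, all probe sets 11.6%). Mean log2 levels of Pmm2 were 8.74, 9.00, 9.17 and 9.05 in lines 5, 7, 12 and 15, and those of loj were 9.23, 9.38, 9.62 and 9.52. Line 5 was lowest and line 12 highest in both genes. Neither call held without the 5 arrays with eggshell or yolk transcripts (adjusted p = 0.0592 and 0.0954).

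Sublines of a group differed little in these genes, which were brighter than the probe sets tested (median log2 level 10.02 against 8.39). No comparison at equal level was made. The median SD of log2 levels within a group over the 45 genes was from 0.0647 in the control to 0.144 in the least depressed sublines of line 5, and it was below the median SD of all probe sets tested in 8 of the 9 groups. The exception was that least depressed group, where all probe sets had 0.11. Its replicate 2 stood apart from the other least depressed sublines. There 17 of the 45 genes were above their own median over the arrays, where the other 11 least depressed sublines had from 37 to 43 and the most depressed ones from 1 to 17. The control samples had 14, 23 and 24.

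Both levels were compared with the same 3 control samples. In the least depressed sublines 23 of the 45 genes were higher and 3 lower than in the control (all probe sets 32.1% higher and 14.3% lower). In the most depressed sublines 3 were higher and 20 lower (all probe sets 27.1% and 12.4%). The median log2 differences of the 45 genes were 0.17 and -0.15, while those of all probe sets were 0.13 and 0.10, so that the whole array was shifted upwards against the control. With each array centred on its own median, 8 genes were higher and 4 lower in the least depressed sublines, and 1 was higher and 26 lower in the most depressed ones (all probe sets 20.5% and 18.9%, and 16.5% and 17.5%), with medians of 0.07 and -0.25. How many genes of the least depressed sublines were above the control thus depended on the scaling. The counts also depended on single control samples, as without control replicate 1 only 12 genes differed in the least depressed sublines, and without control replicates 1, 2 and 3 in turn 14, 13 and 10 did in the most depressed ones. All control samples are of the first code set, and with that set as a covariate 9 genes were higher and 0 lower in the least depressed sublines (all probe sets 16.1% and 8.02%), so that 17 of the 26 calls were lost. In the first code set alone 23 of them were.

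By both comparisons, CG32276, Sec61beta and ergic53 were higher than the control in the least and lower in the most depressed sublines. Der-1, Srp19 and Stt3A were higher at both levels, and Gp93, Sec24AB and Sec24CD lower at both. Another 17 genes passed as higher in the least depressed sublines and did not pass in the most depressed ones, among them Srp9, Srp68, SrpRalpha, Pmm2, OstDelta, Stt3B, Membrin and Sec22. All of the 17 but Srp14 also passed between the levels. In 14 genes the most depressed sublines passed, all as lower, and the least depressed ones did not, among them TRAM, Sec61alpha, wbl, Hsc70-3 and 4 COPI genes. CaBP1, Cnx99A, Ero1L, PEK and loj passed in neither. With the centred arrays the 3 genes of opposite sign were lower in the most depressed sublines only, and among the genes higher at both levels Stt3A alone was so again.

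**Figure D4:**
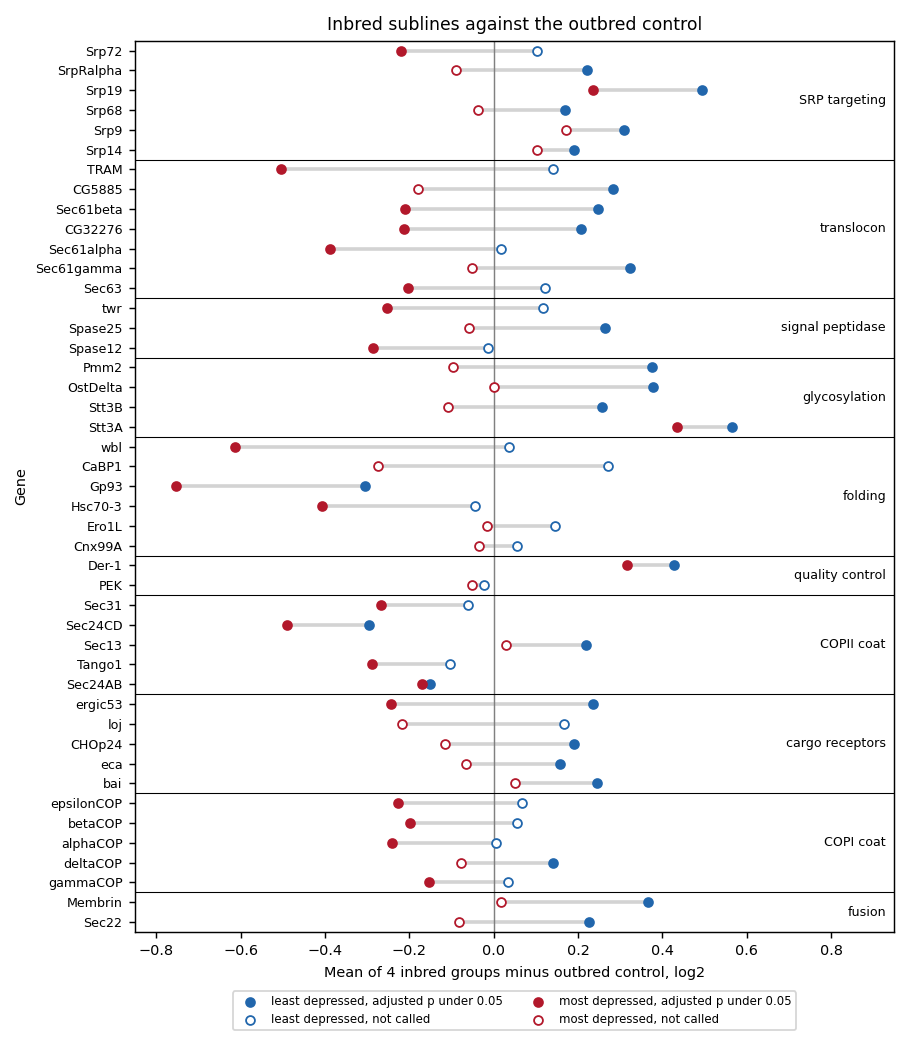
Log2 difference of the least depressed (blue) and most depressed (red) sublines from the outbred control for the 45 genes, each the mean of 4 inbred groups, filled where the adjusted p was under 0.05. In every gene the red point lies left of the blue one, and 28 genes have them on opposite sides of 0 on the deposited scale.

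Other genes of the pathway, outside the 58, had medians nearer to 0. Of 37 further ER genes tested 19 were lower and 0 higher in the most depressed sublines, with a median log2 difference of -0.13. The largest differences were those of CG2918 (Grp170), a large chaperone that works with BiP, at -0.51, l(1)G0320 at -0.47 and Spp, the signal peptide peptidase, at -0.47 (adjusted p = 9.72e-05, 0.000577 and 9.94e-06). Of 27 further genes of vesicle traffic 9 were lower and 1 higher, with a median of -0.08. The largest were Grasp65 of the Golgi stack (-0.40), the ER cargo receptor Surf4 (-0.34) and KdelR, which returns ER proteins from the Golgi (-0.33), with adjusted p of 4.42e-05, 8.25e-06 and 0.000137. These 3 act between ER and Golgi, as do the coat and receptor genes above. Both lists, too, were assembled with earlier results of these data known.

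Part of the genes of secreting tissues were lower as well. Of 24 seminal fluid genes of the accessory gland 16 were lower and 0 higher in the most depressed sublines, with a median log2 difference of -0.23. Their largest differences were those of aqrs (-0.49), Acp76A (-0.45) and Acp53C14c (-0.43), with adjusted p of 0.000634, 0.0184 and 0.0287. In line 7 alone their median was -0.08 and 0 passed (2 at an unadjusted p under 0.05). The summed linear level of this list was 97824 to 134537 in the most depressed sublines, 110853 to 135170 in the least depressed ones and 83114 to 102863 in the control. Thus the levels overlapped, and the control overlapped only with the lowest of the most depressed sublines. Of 26 genes of midgut enzymes 14 were lower and 0 higher, with a median of -0.44. The list was drawn up for secreted enzymes, but it also holds LManIII, LManV and LManVI of the lysosomal alpha-mannosidase family. The alpha-mannosidase gene LManIII (-2.46) and the serine protease genes Jon99Fi (-2.19) and Jon25Bii (-1.68) had the largest differences (adjusted p = 0.000138, 0.0213 and 2.99e-06), which exceed those of any of the 45 genes. The summed linear level of all 30 matched midgut genes was 73693 to 112087 in the most depressed sublines. It was 89298 to 137852 in the least depressed ones and 78311 to 91926 in the control. The part of the accessory gland and of the midgut in the difference of the 45 genes was not tested.

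Of 24 testis genes 0 passed between the levels (limma, 0 at an unadjusted p under 0.05), and their median log2 difference was -0.03. The summed linear level of all 28 matched testis genes was 47725 to 65457 in the most and 52849 to 63678 in the least depressed sublines. RNA of this tissue was thus present in all pools and overlapped between the levels. Of 16 matched egg and yolk genes 3 passed the filter, Yp1, Yp3 and Cp15, and 0 of them passed between the levels (1 at an unadjusted p under 0.05). Their log2 differences had a median of 1.21 (from 0.85 to 1.89), above 0 where those of the 45 genes were below.

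**Figure D5:**
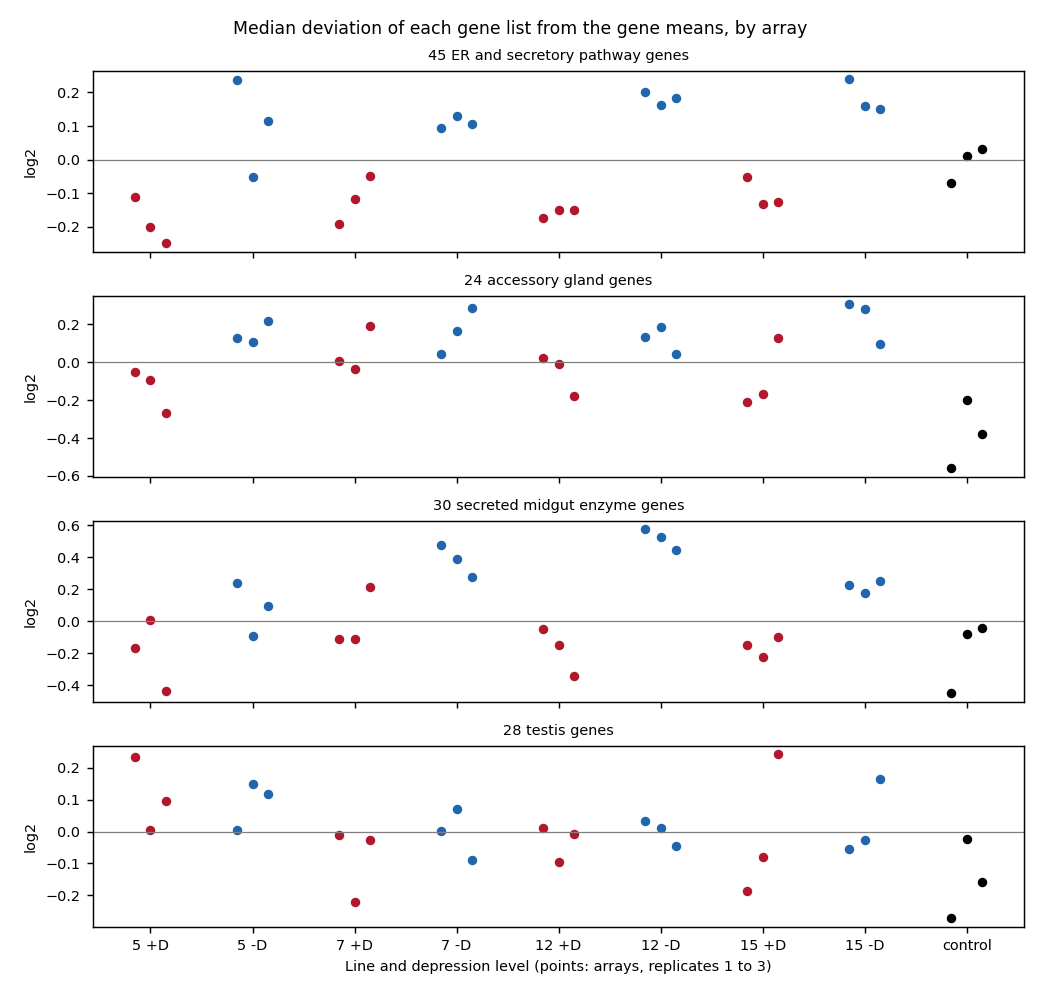
Median deviation of 4 gene lists from the means of their genes, in log2, for each array (points, replicates 1 to 3 of each line and depression level and of the control). Red is most depressed, blue least depressed and black the control. The lists hold all matched genes for the accessory gland (24), midgut (30) and testis (28), and the 45 tested genes of the ER and secretory pathway. In every line the blue points lie above the red ones in the first panel, with replicate 2 of line 5 as the lowest blue point, and in the testis panel they mix.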

How the data were processed

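Gene expression was measured in 27 pools of adult males with Affymetrix Drosophila Genome 2.0 arrays. The authors adjusted the background, normalized quantiles and summarized probe sets with RMA, using Partek 7.3.3 and affy per the submitters' processing notes, and deposited log2 values, one table for all 27 arrays and another for the 24 inbred ones. Quantile normalization makes levels relative to the rest of an array, although the medians of the deposited arrays still ran from 6.32 to 6.54. The files name no genome build, and no sequence or position is given here. Arrays have no read depth, so that their number limits the precision, with 3 in a group. Probe set levels depend on the probes and are not compared between genes.

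Here 183 control probe sets of the maker were left out of 18952, and of the other 18769, 13647 had 1 gene symbol in the platform annotation, 402 several and 4720 none. The 9384 probe sets of highest mean were tested with limma 3.58.1 in R 4.3.3, as 9 group means with 1 spread per probe set (residual df = 18), a trend in the variance prior and the Benjamini-Hochberg correction over all of them. A filter on the mean replaced one on the maximum, which 1 array can pass. A gene was called at an adjusted p under 0.05. The labels call the arrays biological replicates, and each inbred array is 1 subline. The steps were tested on simulated data with 200 planted changes.

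The members and all gene lists were chosen with earlier results of these data known. Values of every array are given for the called genes with the largest differences, up to 10 between the levels and up to 4 for each other test, and group means for the gene of highest mean in each role. Sec61gamma, betaCOP and the other genes named singly are members of the list. Of the other lists the 3 genes with the largest difference were named. The tissue lists were matched by symbol or synonym (24 of 26 accessory gland genes, 30 of 37 midgut, 28 of 34 testis, 16 of 19 egg and yolk genes, 40 of 46 further ER genes and 27 of 37 further traffic genes). Arrays with a median of eggshell genes over 1 above the median array, or a yolk protein mean over 4 above it, were marked and left out in turn. A code of the later set holds a number over 33, also where it joins that number with a lower one. Alternatives were the code set as a covariate, the first code set only, the table of 24 arrays, other filters, median centring, the mean over probe sets, the replicate number as a block, array weights, no trend, and leaving out each array. Line 5 within the later code set was added after the values were seen.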

Additional observations from a re-analysis of the deposited data

How the results depend on the processing

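Between the levels, the count of 38 lower genes ranged from 37 to 39 when each array was left out and stayed within 1.5 times of 38 under all alternatives but the first code set only, where it was 2. Within the first code set the calls of 8 of the 10 genes with the largest differences were lost, at log2 differences from -0.64 for wbl to -0.32 for Sec61alpha and adjusted p from 0.15 to 0.412, with lines 7 and 15 only and fewer arrays. The cause was not tested. For the 10 genes with the largest differences, the difference between the levels kept its sign under each alternative. The other genes were not followed singly between the levels, and within the first code set 43 of the 45 estimates were below 0. The number of genes called in at least 1 line (29) was 13 with the code set as a covariate and 21 to 32 without single arrays. In line 5 (11) it was 5 without the arrays with eggshell or yolk transcripts, 7 with the replicate block, 8 within the later code set (where line 5 has 1 most depressed array, high in yolk transcripts and assumed to vary like the other groups) and 2 to 17 without single arrays. In line 7 (0) it was 7 with array weights and 0 to 2 without single arrays. In line 12 (27) it was 1 with the code set as a covariate and 15 to 28 without single arrays, and in line 15 (12) it was 0 with the first code set only, 0 without the arrays with eggshell or yolk transcripts, and 1 to 17 without single arrays. The interaction stayed at 0 throughout. Against the control, the 26 genes of the least depressed sublines were 9 with the code set as a covariate, 3 with the first code set only, 12 with median centring and 12 to 28 without single arrays. The 23 genes of the most depressed sublines were 10 to 25 without single arrays. The 2 genes that differed between lines were 0 without the arrays with eggshell or yolk transcripts and 2 to 3 without single arrays. The replicate numbers do not pair the sublines, since samples with the same number had a mean correlation of -0.046 in their deviations (n = 108 pairs), others 0.0232 (n = 216), and 1 of 27 samples correlated best with its own number. Apart from line 5, the replicate block moved no count by over 1.5 times. With 3 arrays a group, single-line counts are the least precise of these results.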

Other observations

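The gene lists of the secreting tissues were compared with the outbred control as well. In the least depressed sublines 19 of 24 accessory gland genes were higher and 0 lower than in the control, and in the most depressed ones 16 were higher and 1 lower, with median log2 differences of 0.56 and 0.31. Of 26 midgut genes 13 were higher and 1 lower in the least depressed sublines, and 7 were higher and 3 lower in the most depressed ones, with medians of 0.58 and 0.00. The further ER genes had medians of 0.17 and 0.00, with 17 of 37 higher in the least and 7 in the most depressed sublines. Of the further traffic genes 14 of 27 were higher in the least and 10 in the most depressed sublines (medians 0.19 and 0.11). Over all probe sets, 32.1% were higher and 14.3% lower in the least depressed sublines, with a median of 0.13. In the most depressed ones 27.1% were higher and 12.4% lower, with a median of 0.10. There 38.5% of the midgut genes differed from the control, near the 39.4% of all probe sets. Both comparisons share the 3 control samples. For the 45 genes such calls depended on the code set, the scaling and single control samples, which was not examined for these lists.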
